A study of Mus musculus with 24 samples.

Results

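A Flag antibody gave 883 peaks in 1 ChIP-seq library of the mouse hepatocyte-like (iHep) line 4a3, and 300 of them (33.98%, exact 95% Clopper-Pearson interval 30.9 to 37.2%) shared no base with a peak of any of the 9 iHep Foxa libraries. These 300 peaks are described here and set against the other 583 Flag peaks, which overlapped at least 1 Foxa peak by 1 bp or more. The members were therefore chosen by their overlap with the Foxa lists, and that overlap is given as a description only. A peak that is in no Foxa list is not a site without Foxa, since a list holds only what passed its calling threshold.

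iHep cells are fibroblasts turned towards a hepatocyte-like state by introduced transcription factors. All cells came from C57BL/6 mice. The iHep lines were made from embryonic fibroblasts of embryonic day 13.5, and line 4a1 was infected with Foxa1 and Hnf4alpha, line 4a2 with Foxa2 and Hnf4alpha, and line 4a3 with Foxa3 and Hnf4alpha. Every iHep line thus carried introduced Hnf4alpha. Each line was profiled with the antibody to its own Foxa protein, in 2 libraries with EGS in the title (a word that the labels do not explain) and 1 without it (non-EGS). Line, introduced Foxa protein and antibody are the same split of these libraries, so their parts cannot be told apart. Flag libraries were made from line 4a3 (EGS and b2 in the title) and line 4a2 (EGS and 3 in the title). Hepatocytes from livers of 10-week-old mice gave 1 EGS library for each of the Foxa1, Foxa2 and Foxa3 antibodies. The title of the Flag library of line 4a3 ends in the same code as that of Foxa3 EGS replicate 1 of that line. The labels do not explain this code.

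The Foxa proteins are transcription factors with a forkhead DNA-binding domain. They can bind their sites in closed chromatin and they act early in liver development. Hnf4alpha is a nuclear receptor that binds regulatory DNA of many hepatocyte genes. Flag is a short peptide epitope that can be fused to an introduced protein, so that an antibody to the epitope pulls down that protein with the DNA it is bound to. The labels do not name the tagged protein. In ChIP-seq, a peak is an interval where the sequenced fragments pile up over their surroundings.

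The 14 libraries with a peak list held from 21 to 11408 peaks each, and the depth of the libraries is unknown. There was 1 Flag library of this line, so no value below has a replicate check and no test was possible. The intervals given are 95% intervals over peaks. Only counting error is in them, and neighbouring peaks are not independent, so they are too narrow where peaks lie side by side.

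The members were the weaker part of the Flag list. The authors' score for each Flag peak ran from 50.01 to 217.25 in the members, with a median of 55.5 (interval 54.76 to 56.64), and from 50 to 1666.13 in the other Flag peaks, with a median of 68.21 (64.59 to 71.19). The ranges overlap over all of the members' span, and the strongest Flag peaks all had a Foxa peak: the highest member ranked 20th of the 883. As a percentile within the list, the median was 33.2 (29.0 to 37.8) in the members and 61.4 (57.1 to 65.4) in the others. In the upper 50% of the list by score lay 83 members (27.7%, 22.7 to 33.1%) and 357 other Flag peaks (61.2%, 57.1 to 65.2%), a difference of -33.6 percentage points (-39.9 to -26.8). Only 5 members (1.67%) reached the top 10%, against 83 others (14.2%). In the lowest quintile the order was turned round, with 95 members (31.7%) and 80 others (13.7%).

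The share of Flag peaks without a Foxa peak fell in the upper part of the list. In the lowest decile by score, 51 of 91 Flag peaks (56.0%) had no Foxa peak. The share was 52.4, 42.9, 46.0 and 47.8% in the next 4 deciles, and then 35.6, 25, 15.9 and 12.4%. In the highest decile it was 5.68% (5 of 88 peaks, 1.87 to 12.8%). The intervals of the first 5 deciles overlap, and most of the fall lies above them.

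**Figure D1:**
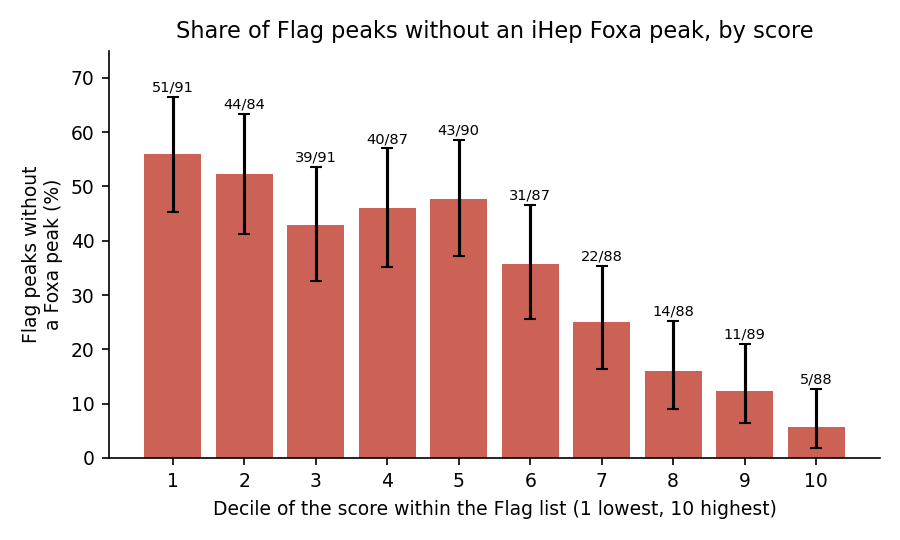
Share of Flag peaks without an iHep Foxa peak (%, vertical axis) in each decile of the Flag score (horizontal axis, lowest first). Bars are shares, error bars are exact 95% intervals and the printed fractions are peak counts; the share is 56.0% in the lowest decile and 5.68% in the highest.

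The score was generally higher in Flag peaks that more Foxa lists held. The median percentile was 39.4 in the 136 Flag peaks found in 1 Foxa list, 55.1 in the 105 found in 2 lists and 58.2 in the 78 found in 3. It was about level at 4 and 5 lists, with 65.7 in 77 peaks and 65.1 in 62. It was 81.4 in the 68 found in 6 lists, 83.6 in the 33 found in 7 and 96.9 in the 23 found in 8. The 300 members, at 33.2, stood below the peaks of each of these classes.

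Most members were narrow. Their widths ran from 101 to 5004 bp with a median of 205.5 bp (200 to 213), and those of the other Flag peaks from 148 to 5953 bp with a median of 252 bp (243 to 261). The difference of medians was -46.5 bp (-57.0 to -34.8). Below 200 bp lay 132 members (44.0%) and 113 others (19.4%). The members were also more frequent among the broadest peaks. Of them 18 (6.00%) were 800 bp or wider, against 11 others (1.89%) and 3.28% of all Flag peaks. The 800 bp limit was not set in advance. With it, the difference was 4.11 percentage points (1.30 to 7.56). The members therefore spread to both ends of the width range. Several of the 18 lie side by side in the dense runs described below, so that interval is too narrow. The difference was not taken without the runs.

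Width went with score, and the difference between the groups was within counting error once the list was split by score. In the lowest quintile of the Flag list the median width was 185 bp (184 to 187) in 95 members and 206 bp (186 to 211) in 80 others. In the second quintile it was 199 bp against 201 bp, and in the third 218 bp against 232 bp. In the fourth quintile it was 291.5 bp (229 to 454) in 36 members and 271.5 bp (264 to 280) in 140 others. In the highest quintile it was 492.5 bp (310 to 1233) in 16 members and 351 bp (336 to 366) in 161 others. The intervals of the 2 groups overlap in every quintile, in the lowest only at their edges. No interval of the difference was taken within a quintile, and overlap does not show that the groups are equal. The stronger members include 12 peaks of the chromosome 6 stretch described below, all of them broad. Restricted to the upper 50% of the list by score, members had a median 8 bp above that of the others (-24.0 to 80.3), so the narrower median holds for the list as a whole and not among its stronger peaks.

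**Figure D2:**
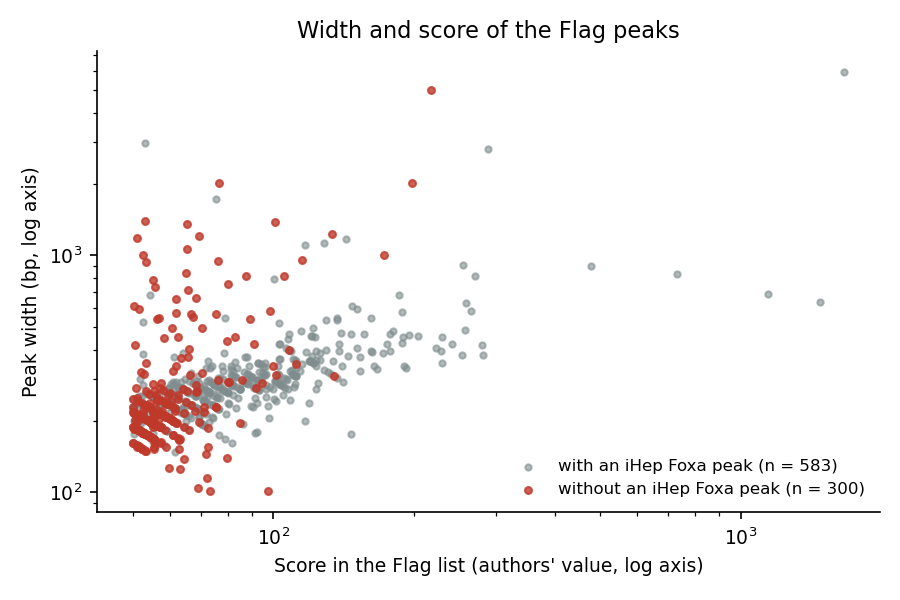
Width (bp, vertical log axis) against the authors' score (horizontal log axis) for each Flag peak; red points are the 300 members and grey points the 583 other Flag peaks. Narrow members crowd at the lowest scores, a separate set of broad members lies above the main band, and no member exceeds a score of 217.25.

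A few members were narrower than every other Flag peak. After the values were seen, 9 members below 148 bp were singled out. The narrowest were chr10:94334767-94334867 and chr5:110503491-110503591, each 101 bp wide. These 9 were not among the weakest peaks, as their score percentiles ran from 46.1 to 83.4.

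Of the 18 members of 800 bp or more, 7 lay on chromosome 6, 4 on chromosome 1, 3 on chromosome X and 2 on chromosome 10. Chromosomes 8 and 11 held 1 each. Of the 4 on chromosome 1, 3 lay between 85076885 and 85160038.

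Members lay in dense runs more often than other Flag peaks did. A dense run was defined as 3 or more Flag peaks with neighbours at most 10000 bp apart. Of all Flag peaks 4.53% lay in one. Of the members 27 did (9.0%, 6.01 to 12.8%), and of the others 13 (2.23%, 1.19 to 3.78%), a difference of 6.77 percentage points (3.41 to 10.7). The excess came largely from 1 stretch of chromosome 6. Without its 16 peaks, 3.87% of the members and 2.23% of the others lay in runs, and the difference of 1.64 points (-0.829 to 4.77) included 0. It also included 0 with a run gap of at most 2000 bp (1.47 points, -0.498 to 4.09) and with members defined by the Foxa3 lists alone (1.42 points, -1.88 to 4.18). At least 1 Flag neighbour within 10000 bp was found for 45 members (15.0%) and 65 others (11.1%), a difference of 3.85 points (-0.928 to 9.01).

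The stretch, chr6:47604757-47722517 (mm9), spans 117761 bp and holds 16 Flag peaks, all of them members, or 5.33% of all members. It consists of 2 runs. The first, chr6:47604757-47635675, holds 9 peaks in 30919 bp. The second, chr6:47693853-47722517, holds 7 peaks in 28665 bp. Between the runs lie 58177 bp without a Flag peak, and no other Flag peak lay within 60000 bp on either side. The 16 peaks were 424 to 1377 bp wide, with a median of 655 bp. All were thus broader than the median Flag peak of 233 bp. They were not weak members: their median score percentile was 62.9, and 12 of the 16 lay in the upper 50% of the list.

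Peaks of the other lists in this stretch were counted too. How many a stretch of this length holds elsewhere was not counted, so low counts here are no result about it. The iHep Foxa lists held 1 peak in it, chr6:47614518-47614874 of Foxa2 non-EGS, which lies in the first run between 2 members. The second run held no Foxa peak. Neither run held a peak of the 3 hepatocyte lists or of the Flag list of line 4a2. Foxa3 EGS replicate 1, which comes from the same line as the Flag library and shares its title code, held none there either. Outside the stretch, 39.6% of the Flag peaks on chromosome 6 were members, against 32.8% of all Flag peaks outside it.

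**Figure D3:**
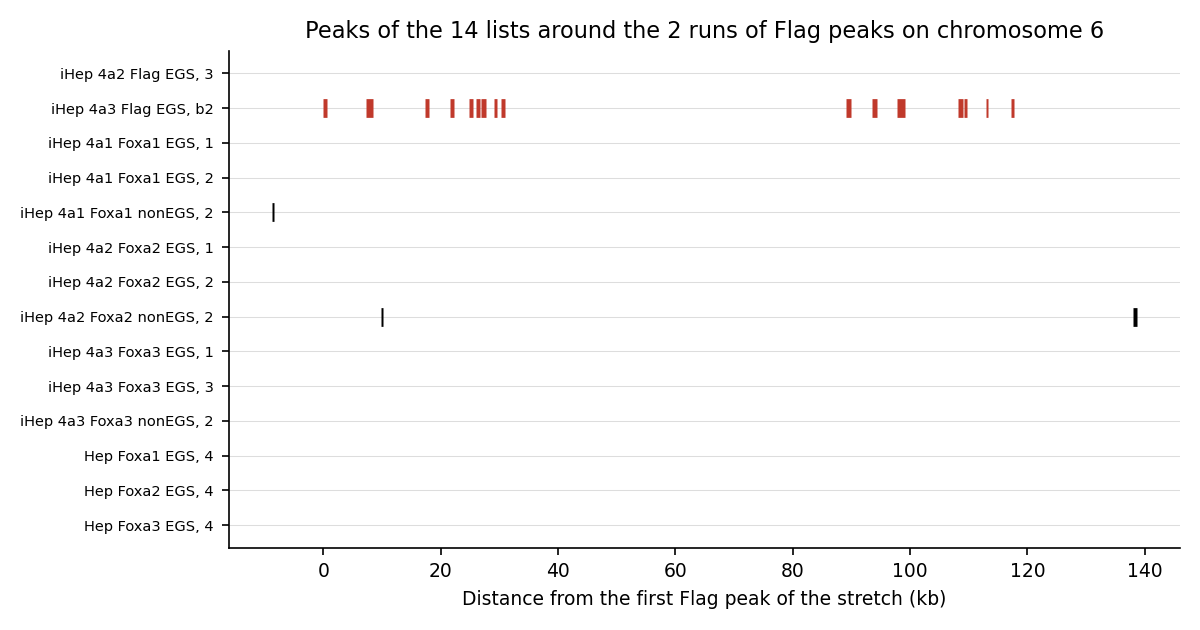
Positions of the peaks of all 14 lists around the chromosome 6 stretch (horizontal axis, kb from its first Flag peak), with 1 row per library and the replicate after the comma. The 16 red marks in the Flag row of line 4a3 form 2 runs, and 3 Foxa peaks (black) fall in the window, 1 of them inside the stretch.

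In all there were 9 dense runs, of which 4 were made of members only and 7 held at least 1 member. On chromosome X, chrX:166431024-166444780 held 3 members of 946, 2025 and 5004 bp and no Foxa peak. The broadest of them, chrX:166439777-166444780, had the highest score of any member, 217.25. On chromosome 1, chr1:172994239-173002208 held 3 members of 269 to 319 bp beside 1 Foxa peak. The run chr10:7229376-7237169 had a different neighbourhood: its 4 Flag peaks, 3 of them members, lay among 33 hepatocyte peaks and only 3 iHep Foxa peaks. The runs chr5:65194093-65203476 and chr5:99659992-99671649 held 1 member each among 4 Flag peaks, with 15 and 12 iHep Foxa peaks in their spans. These counts of hepatocyte and Foxa peaks are sums over lists, so a site held by several lists is counted once for each. The last 2 runs held no member.

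Chromosome 6 had the most members along with chromosome 1, 37 each. They made up 53.6% (41.2 to 65.7%) of the 69 Flag peaks on chromosome 6 and 48.1% of the 77 on chromosome 1, against 33.98% of all Flag peaks. Outside dense runs the shares were 42.0% and 45.9%, against 32.4% of all Flag peaks there. Chromosome 3, at 42.4%, was then level with chromosome 6. On chromosome 13 the share was 18.9% (7 of 37). Chromosomes X and Y, with 5 members of 8 Flag peaks and 1 of 1, are too thinly filled for a comparison.

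Outside the runs, the 10 members of highest score lay at very different distances from a Foxa peak. The first was chr8:19923743-19925764, with a score of 198.47 and a width of 2022 bp, 1136 bp from a Foxa peak. The next, chr6:3150678-3151683, had a score of 172.23 and a width of 1006 bp, and its nearest Foxa peak was 268795 bp away. The third, chr1:74191925-74192234, had a score of 134.73 at an ordinary width of 310 bp and lay 2359 bp from a Foxa peak. The other 7 had scores of 94.81 to 115.41, and their gaps ran from 8601 bp at chr17:4778253-4778652 to 436739 bp at chr8:15519782-15520129. They differ in shape too, from the 956 bp of chr6:29697775-29698730 to the 101 bp of chr5:110503491-110503591.

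The median gap from a member to its nearest Foxa peak was 24229.5 bp (19009 to 31455). Within 1000 bp there were 44 members (14.7%), within 10000 bp 110 (36.7%) and within 100000 bp 235 (78.3%). For the other Flag peaks the comparable measure is the gap to the next Foxa region that they do not overlap, where a region is a union of overlapping Foxa peaks. Its median was 12160 bp (9574 to 14970). At 1000 bp the groups were close, 14.7% against 15.8%, with a difference of -1.11 points (-6.10 to 4.24). At 10000 bp the difference was -10.2 points (-17.0 to -3.11), and at 100000 bp it was -10.0 points (-15.7 to -4.63). The shares with a Foxa region close by thus differed by less than the counting error, and at the 2 larger distances the members had the lower share. The others were chosen for a Foxa peak at the site itself, which their gap leaves out.

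**Figure D4:**
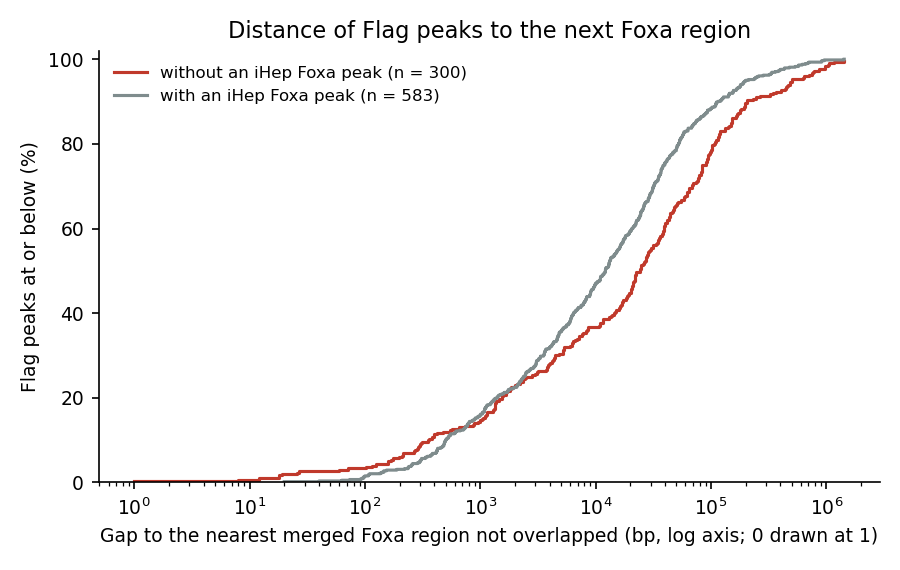
Cumulative share of Flag peaks (%, vertical axis) by the gap to the nearest merged iHep Foxa region that they do not overlap (bp, horizontal log axis), for the 300 members (red) and the 583 others (grey). The curves run close together near 1000 bp, at 14.7% and 15.8%, and part at larger gaps, where the medians are 24229.5 and 12160 bp.

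The rank of the members varied little with their distance from a Foxa peak. The median score percentile was 26.9 in the 44 members within 1000 bp, 31.6 in the 66 at 1000 to 10000 bp, 34.0 in the 125 at 10000 to 100000 bp and 34.8 in the 65 beyond. Median widths in the same classes were 202.5, 201, 207 and 212 bp. In the upper 50% of the list lay 18.2% of the nearest class and 27.3, 30.4 and 29.2% of the following ones. The order of the classes is within counting error: the interval of the median percentile was 17.6 to 39.8 in the nearest class and 25 to 44.5 in the farthest, and that of the upper 50% was 8.19 to 32.7% against 18.6 to 41.8%.

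At the boundary of the rule, chr1:36614005-36614240 touches a Foxa3 non-EGS peak without sharing a base and is a member. The members chr18:35278377-35278614 and chr14:27406949-27407194 lie 8 and 12 bp from a Foxa peak. Just outside the rule, chr10:95800388-95800615 shared 2 bp with a Foxa peak, chr4:82157390-82157615 shared 7 bp and chr8:60256811-60256996 shared 14 bp. The members farthest from any Foxa peak were chr7:84204916-84205127 at 1425962 bp, chr14:88976486-88976643 at 1159854 bp and chr4:143366237-143366386 at 1049279 bp. The member chrY:2652197-2652336 had no iHep Foxa peak on its chromosome.

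Which Foxa libraries were counted set how many Flag peaks were members. Foxa2 non-EGS, the longest list with 47.7% of the 23927 iHep Foxa peaks, held 480 Flag peaks (54.4%), of which 68 were in no other Foxa list. It was the nearest list for 194 members (64.7%). Without that library the members rose to 41.7% of the Flag list, and without Foxa3 non-EGS to 37.3%. Counting only the 6 EGS lists, 51.5% of Flag peaks had no Foxa peak, against 39.3% with only the 3 non-EGS lists. Against the 3 Foxa3 lists of the same line alone the figure was 68.2%. The non-EGS lists hold 3431 to 11408 peaks each and the EGS lists 46 to 1246. Median peak widths are 180 to 458 bp in the non-EGS lists and 135.5 to 149 bp in the EGS lists. How far list length and peak width set these shares was not tested. Foxa3 EGS replicate 1 held 170 Flag peaks (19.3%), fewer than the 256 held by Foxa1 EGS replicate 1 of line 4a1.

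A share of peaks found in no other library was not particular to the Flag antibody. The same count was made for each Foxa list against the other iHep Foxa lists. It gave 5.32% in Foxa1 EGS replicate 1 and 20.7% in replicate 2, 7.73% and 10.9% in the Foxa2 EGS libraries, and 35.2% in Foxa3 EGS replicate 1. In Foxa3 EGS replicate 3, also of line 4a3, it was 4.35% (2 of 46 peaks, 0.531 to 14.8%). In the long non-EGS lists it was 27.1% with the Foxa1 antibody, 69.0% with Foxa2 and 74.7% with Foxa3. The 34.0% of the Flag list was within the interval of Foxa3 EGS replicate 1 and above those of Foxa3 EGS replicate 3 and of the EGS lists of Foxa1 and Foxa2. The Flag list starts at another lowest score than the Foxa lists and its threshold is not known, so these shares may come from lists called differently. Foxa lists have a second library of their own antibody among those counted, or a non-EGS one, which the Flag list has not. Against the other lines only, the figures were 39.5% for Flag, 76.2% for Foxa3 EGS replicate 1 and 97.8% for replicate 3. Peaks found in no other list had a lower median percentile than the rest in 8 of the 10 lists compared (the Flag list and the 9 Foxa lists), for example 37.5 against 58.0 in Foxa3 EGS replicate 1. One of the 8 rests on the 2 peaks of Foxa3 EGS replicate 3. The exceptions were Foxa1 EGS replicate 2, with 76.8 against 40.3, and Foxa2 EGS replicate 2, with 48.75 in both. The Flag list of line 4a2, which is not among these 10, gave 23.8% (5 of 21 peaks, 8.22 to 47.2%) against the 9 Foxa lists. Those 5 peaks had a median percentile of 21.4, against 56.0 in the rest of that list.

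**Figure D5:**
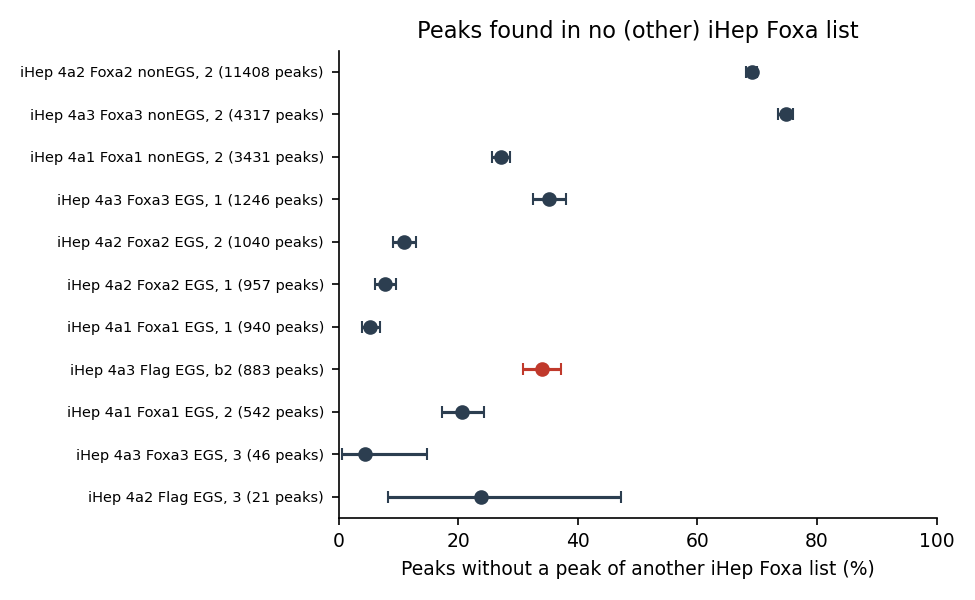
Share of the peaks of each iHep list that overlap no peak of another iHep Foxa list (%, horizontal axis), with exact 95% intervals; rows are libraries ordered by list length and the Flag list of line 4a3 is red. The Flag list, at 34.0%, lies between Foxa3 EGS replicates 1 and 3 of the same line, at 35.2% and 4.35%.

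Few Flag peaks of either group lay on a hepatocyte Foxa peak, and the interval of the difference is wide. Of all Flag peaks 5.21% overlapped a peak of any hepatocyte list. Of the members 13 did (4.33%, 2.33 to 7.30%), and of the others 33 (5.66%, 3.93 to 7.86%), a difference of -1.33 percentage points (-4.30 to 2.11). Its sign turned with the Foxa libraries that define the members: it was -4.40 points (-7.63 to -1.33) with EGS lists only and 3.76 points (0.545 to 7.35) with non-EGS lists only. With the Foxa3 lists of line 4a3 alone it was -3.84 points (-7.88 to -0.418).

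By antibody the counts are small, and the antibodies were not compared with each other. With hepatocyte Foxa2, which 3.17% of all Flag peaks overlapped, there were 3 members (1.0%, 0.207 to 2.89%) and 25 others (4.29%, 2.79 to 6.27%), a difference of -3.29 points (-5.42 to -0.875). With hepatocyte Foxa1 (1.70% of all Flag peaks) there were 5 members (1.67%) and 10 others (1.72%). With hepatocyte Foxa3 (2.27% of all) there were 10 members (3.33%) and 10 others (1.72%), and the difference of 1.62 points (-0.613 to 4.47) included 0. Among the others, 23 of the 33 peaks with a hepatocyte peak lay in the highest quintile by score, which holds 161 of them. Among the members it was 2 of 13, in a quintile that holds 16. There the shares were 14.3% of the others and 12.5% of the members. In the third quintile and the next higher one the order was the opposite of the overall one, with 5 of 74 members (6.76%, 2.23 to 15.1%) against 1 of 103 others (0.971%, 0.0246 to 5.29%), and 4 of 36 members (11.1%, 3.11 to 26.1%) against 6 of 140 others (4.29%, 1.59 to 9.09%). In the 2 lowest quintiles 2 members and 3 others had a hepatocyte peak.

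Outside the dense runs 10 members had a hepatocyte peak. The strongest, chr8:19923743-19925764, was in the hepatocyte Foxa1 list. It was followed by chrY:2652197-2652336 (score 79.70, hepatocyte Foxa3) and chr4:146496320-146496754 (score 79.57, hepatocyte Foxa1). The member chr9:56071372-56071774, with a score of 66.01, was in both the Foxa1 and the Foxa3 list of hepatocytes. Next by score came chr8:86280631-86280999, chr1:195053894-195054235 and chr6:56183530-56183854, all in hepatocyte Foxa3 only. The weakest of the 8 named, chr16:93789366-93789622 (score 59.58), was in hepatocyte Foxa2.

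The other Flag list, of line 4a2, held 21 peaks, of which 1 overlapped a member and 7 overlapped other Flag peaks of line 4a3. Of all Flag peaks of line 4a3, 0.906% overlapped it. The share was 0.333% of the members (0.00844 to 1.84%) and 1.20% of the others (0.484 to 2.46%), and the difference of -0.867 points (-2.17 to 0.804) included 0. The 7 others were peaks that 2 to 9 Foxa lists also held. The single member was chr8:19923743-19925764, which was also in hepatocyte Foxa1. The peak of line 4a2 that it overlaps is only 66 bp wide and has the lowest score of the 21 (5.05). The remaining 13 peaks of line 4a2 met no Flag peak of line 4a3, and 4 of those 13 had no iHep Foxa peak either. With 21 peaks, that list can show few shared sites.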

How the data were processed

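The 14 deposited peak lists came from ChIP-seq libraries of iHep cells and hepatocytes. The 10 input samples were not used here. None of them carries the line and replicate label of a Flag library, whereas each Foxa library has an input so labelled. The submitters' processing notes name BWA 0.6.2, bedtools 2.16.2 and MACS2 2.1.0, with mm9 as the build, and give no settings. Each deposited line gives a chromosome, start, end, name and the authors' score, on a scale not given. The lowest score is 50 in this Flag list and just above 5 in the other lists, so a score served only for ranks inside its own list. Whether this Flag list was called with the same program version and threshold as the others is not known.

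Starts were written 1-based. Overlap meant at least 1 bp, and gaps count the bases between peaks. Shares carry exact Clopper-Pearson intervals, medians binomial order-statistic intervals, and differences intervals that combine both. Python 3.11.15, numpy 2.4.6, pandas 2.3.3, scipy 1.17.1 and matplotlib 3.10.9 were used, and the scripts were tested on simulated data.

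Regions were named by rule: the 10 strongest isolated members, runs with at least 5 members, up to 8 isolated members with a hepatocyte peak, members in the other Flag list, and the 3 nearest, 3 least overlapped and 3 farthest peaks. Other regions and all runs were named after their values were seen. Members, lists and measures were chosen with earlier results of these data known. No gene or sequence is given, since no mm9 annotation or genome was used here. Alternatives covered score thresholds, overlap, choice of Foxa libraries, run definition and each library left out.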

Additional observations from a re-analysis of the deposited data

How the results depend on the processing

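The lower rank of the members stood in all 20 alternatives, with a difference in the upper 50% of the list of -37.2 to -28.0 percentage points. The share of Flag peaks without a Foxa peak was 29.0% with Foxa peaks widened by 1000 bp, 42.1% with the top 50% of each Foxa list, 18.9% with the top 50% of the Flag list and 12.7% with its top 300 peaks. It was 51.5% with EGS, 39.3% with non-EGS and 68.2% with Foxa3 libraries only, and 33.98 to 41.7% with each Foxa library left out. The dense-run difference was 21.4 points in the top 50% and 28.6 in the top 300 of the Flag list. The chromosome 6 stretch has 12 of its 16 peaks in the top 50%, and neither value was taken without it. The difference was 1.42 with Foxa3 libraries only and 1.47 with a run gap of at most 2000 bp. It was 1.64 without the chromosome 6 stretch, an alternative chosen after seeing the data. The hepatocyte difference was 2.72 points (-3.94 to 11.8) in the top 50% and 5.48 (-5.20 to 21.3) in the top 300, and both intervals included 0. It was -4.40 with EGS, 3.76 with non-EGS and -3.84 with Foxa3 lists only. The width difference changed sign, to 8 bp (-24.0 to 80.3) in the top 50% and 31.5 bp (-23.6 to 251) in the top 300, but both intervals included 0. For the changes with score, library choice and stretch, the cause was not tested. No paired analysis was possible because the results come from no test and there is 1 Flag library. Depth is unknown, so sites below a list's calling threshold cannot be seen.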
